A study of Mus musculus with 10 samples.

Results

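The genes described here are 9 members of the complement system: C1qa, C1qb and C1qc, which encode the chains of C1q; the anaphylatoxin receptors C3ar1 and C5ar1; the components C3, Cfp and Cfb; and the membrane regulator Cr1l. They were taken by name from the 52636 genes of the count table, through the Ensembl identifiers and GRCm38 gene symbols. The genes were chosen by earlier results of these same libraries, the differences in counts between LAIR1KO and WT, so the differences of these 9 genes between genotypes are given as a description, without a test. The libraries came from nonclassical monocytes, the patrolling subset of monocytes, sorted from mouse bone marrow. The 5 WT libraries carry the genotype LAIR1+/+ and the 5 LAIR1KO libraries LAIR1-/-. Animals of both groups received no treatment, and the labels give neither age, sex nor strain, nor how the allele was made. The stated purity of the sort was 98%, and 5000 to 10000 cells went into each low-input RNA preparation. LAIR1 is an inhibitory receptor of leukocytes for collagen-like domains, and the title of the study names its part in monocyte and lung macrophage homeostasis.

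Complement is a cascade of plasma and membrane proteins that marks particles for uptake, recruits leukocytes and lyses membranes. C1q opens the classical pathway by binding antibody complexes, dying cells and other surfaces. Its chains A, B and C are present in equal numbers in the protein. They wind into collagen-like stalks that end in globular heads, and the stalk is a described ligand of LAIR1. Most complement proteins come from the liver, whereas C1q comes mainly from macrophages, dendritic cells and related myeloid cells. C3 is the protein on which the pathways meet; Cfb and properdin (Cfp) build and stabilise the alternative pathway convertase that cleaves it. C3ar1 and C5ar1 bind the small fragments released from C3 and C5, and Cr1l, also called Crry, protects rodent cells from their own convertases.

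The 3 C1q genes lie on the minus strand within 18.7 kb of chromosome 4 in GRCm38. C1qb (ENSMUSG00000036905) spans 136880129 to 136886187, C1qc (ENSMUSG00000036896) 136889804 to 136893065 and C1qa (ENSMUSG00000036887) 136895917 to 136898803. Their coding sequences are shown over the longest unbroken run of collagen triplets, because these encode the stalk. Which triplets LAIR1 binds was not measured here. Each triplet is a glycine codon, in capitals, followed by codons for any 2 other residues, and all lie in protein-coding exons of the GENCODE transcripts.
C1qa, codons 62 to 109: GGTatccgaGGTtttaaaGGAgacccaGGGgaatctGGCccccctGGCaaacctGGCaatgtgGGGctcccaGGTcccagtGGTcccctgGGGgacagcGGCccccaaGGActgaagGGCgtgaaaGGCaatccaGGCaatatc
C1qb, codons 31 to 117: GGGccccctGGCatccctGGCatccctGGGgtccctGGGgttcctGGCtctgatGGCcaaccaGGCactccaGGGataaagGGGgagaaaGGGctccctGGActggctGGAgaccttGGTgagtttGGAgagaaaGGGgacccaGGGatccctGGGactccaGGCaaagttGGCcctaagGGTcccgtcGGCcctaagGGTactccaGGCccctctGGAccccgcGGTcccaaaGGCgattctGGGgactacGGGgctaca
C1qc, codons 68 to 115: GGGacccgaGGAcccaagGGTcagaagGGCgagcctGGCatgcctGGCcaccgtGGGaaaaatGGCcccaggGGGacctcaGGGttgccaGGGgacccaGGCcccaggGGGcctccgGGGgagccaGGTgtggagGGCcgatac
The run in C1qb held 29 triplets in 261 bases. The runs in C1qa and C1qc held 16 triplets in 144 bases each, and both are the later part of a longer stretch with an interruption. That stretch held 26 triplets between codons 31 and 109 of C1qa and 27 between codons 32 and 115 of C1qc. In each of the 3 chains, only 1 triplet had proline at both residues after the glycine. The coding sequences are 245 codons long in C1qa, 253 in C1qb and 246 in C1qc.

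The upstream sequences of C1qb, C1qc and C3ar1 are shown because these genes had the lowest LAIR1KO levels, relative to WT, of the tested members that RefSeq windows cover. RefSeq (GRCm38.p6) gave a window for 7 of the 9 members, without C1qa and Cfb. The 250 bases before each RefSeq start were searched on both strands for 3 motifs: the MAF half-site TGCTGA, the PU.1 core GAGGAA and the interferon element, GAAA and GAAA with any 2 bases between them. Matches to the first and second are in capitals, on either strand, and bases that GENCODE places inside a transcript of the gene are left off. The 3 sequences run 5' to 3' on the minus strand.
C1qb, chr4:136886201-136886450: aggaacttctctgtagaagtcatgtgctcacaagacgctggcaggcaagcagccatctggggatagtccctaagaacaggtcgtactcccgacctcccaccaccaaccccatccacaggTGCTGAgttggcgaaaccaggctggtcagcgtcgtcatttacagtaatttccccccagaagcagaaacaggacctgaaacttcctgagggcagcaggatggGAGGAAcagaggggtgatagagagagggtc
C1qc, chr4:136893066-136893164: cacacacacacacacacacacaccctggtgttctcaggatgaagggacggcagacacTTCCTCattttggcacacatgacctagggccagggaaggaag
C3ar1, chr6:122856162-122856407: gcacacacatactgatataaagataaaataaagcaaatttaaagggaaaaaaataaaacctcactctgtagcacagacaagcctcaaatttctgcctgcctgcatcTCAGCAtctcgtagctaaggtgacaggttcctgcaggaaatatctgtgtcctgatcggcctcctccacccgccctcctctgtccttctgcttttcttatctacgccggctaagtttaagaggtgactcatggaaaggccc
TGCTGA was found in the windows of 4 of 7 members, C1qb, C3ar1, C5ar1 and C3, and in 16.1% of all 32851 mouse windows of the same length. Both figures count whole windows, including bases inside a transcript of the gene. The C5ar1 match lies in such bases, and the 48 bases of its window outside the transcript hold no match. GAGGAA was found in 2 of 7, C1qb and C1qc, against 23.3% of all windows. In C1qb, the only window with both, the matches did not overlap. The interferon element was found in 0 of 7, against 2.98% of all windows. A match describes the letters only, and binding was not measured here.

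Each library held 12106209 to 15356924 counts, and 13469 genes had enough counts for the comparison. Levels are in CPM, counts per 1000000 counts of a library whose size was scaled with TMM, and changes are log2 fold changes, LAIR1KO minus WT, with the standard error (SE) of the edgeR quasi-likelihood fit. Genes outside the chosen 9 were called changed at a two-sided adjusted p under 0.05 over all 13469 genes. Whether each library stands for its own animal is not stated, so these p-values measure the spread between libraries, which may be technical. By this rule 6.79% of tested genes were called, 1.68% lower and 5.11% higher in LAIR1KO. As a check of the labels, the mean of Lair1 was 374 ± 27.7 CPM over the WT libraries, and 0.226 ± 0.276 CPM remained after its loss (SD, n = 5 each). An exact two-sided permutation test over the 252 splits gave p = 0.00794, its minimum.

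All 3 C1q chains were about 5 times lower in LAIR1KO than in WT. C1qb counts in LAIR1KO libraries were 816 to 1340, so the low levels did not rest on a handful of reads. In sorted bulk RNA, fewer cells that express a gene and less of its RNA per cell cannot be told apart.

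C1qa, the A chain, measured 156, 94.8, 103, 143 and 80.4 CPM in WT replicates 1 to 5 and 27.9, 24.3, 19.8, 20.8 and 21.8 CPM in LAIR1KO replicates 1 to 5. The lowest WT library lay well above the highest LAIR1KO library, and WT replicates 1 and 4 were the highest. The means were 115 ± 32.4 CPM in WT and 22.9 ± 3.23 CPM in LAIR1KO (mean ± SD, n = 5 each), a log2 fold change of -2.33 ± 0.18 (SE). LAIR1KO thus kept 19.9% of the WT level of C1qa.

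C1qb, the B chain, measured 440.1, 295, 325, 516 and 258 CPM in WT and 73.6, 75.1, 65.9, 63.6 and 97.1 CPM in LAIR1KO. Again no LAIR1KO library reached a WT library, and WT replicates 4 and 1 led. Its means were 367 ± 108 CPM in WT and 75.1 ± 13.3 CPM in LAIR1KO (mean ± SD, n = 5 each). The log2 fold change of C1qb was -2.29 ± 0.19, or 20.5% of the WT level.

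C1qc, the C chain, measured 220.2, 172, 168, 235 and 124 CPM in WT and 44.3, 39.4, 27.4, 29.6 and 42.1 CPM in LAIR1KO. WT replicate 5 was the lowest of its group for C1qc, as it was for C1qa and C1qb, and still lay above every LAIR1KO library. The means of C1qc were 184 ± 44.6 CPM and 36.6 ± 7.58 CPM (SD, n = 5 each). This gave a log2 fold change of -2.33 ± 0.19 and 19.9% of the WT level. The spread of C1qa between WT libraries was wide, with a coefficient of variation of 28.1% against 14.1% in LAIR1KO.

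**Figure D1:**
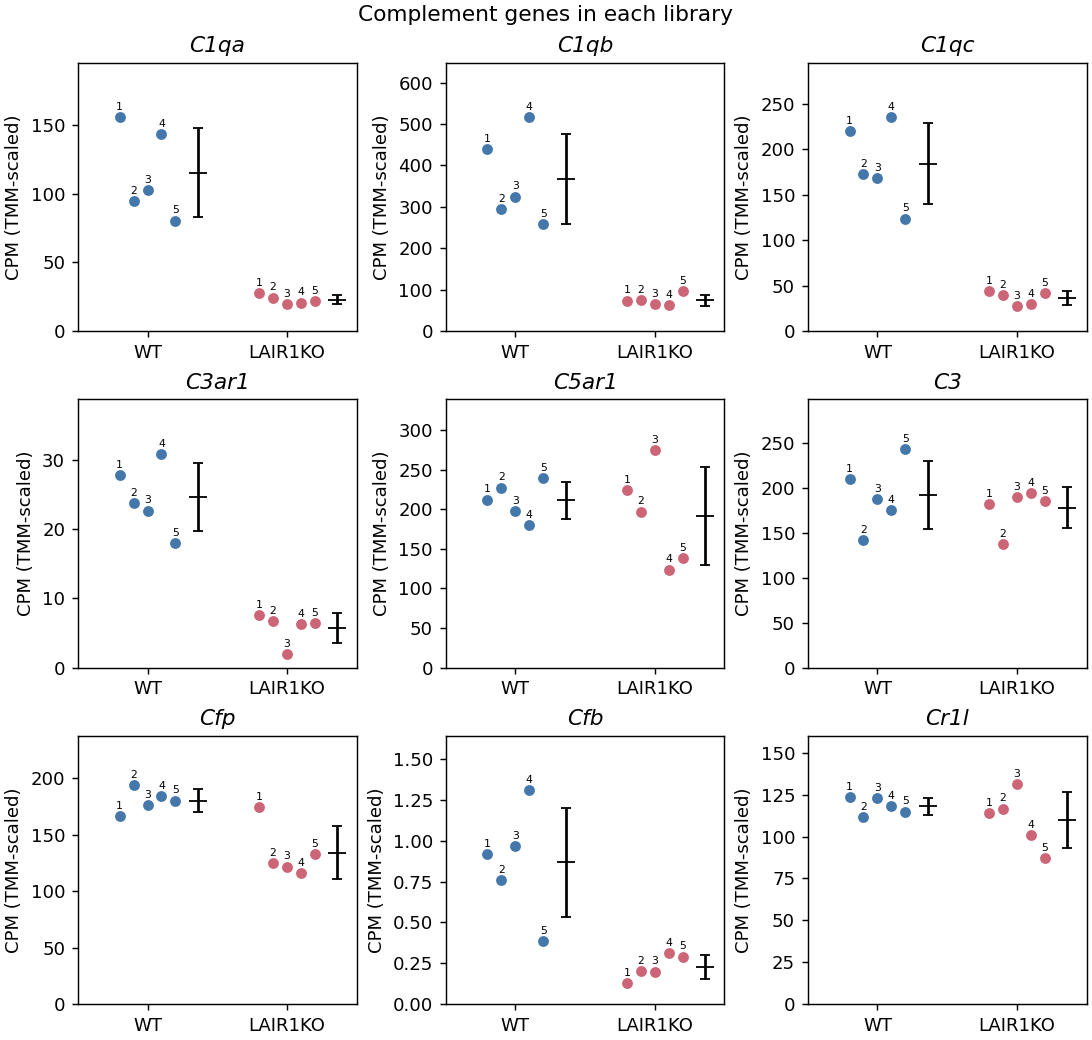
CPM (vertical axis, linear from 0) of each of the 9 genes in the 5 WT and 5 LAIR1KO libraries, 1 panel per gene, with points for libraries and bars for the mean ± SD. C1qa, C1qb, C1qc, C3ar1 and Cfb separate by genotype, while C5ar1, C3, Cfp and Cr1l overlap.

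Because CPM does not allow for gene length, levels of different genes were compared as CPM per kb of exon. In WT the order began with C1qb at 337 ± 99.0 CPM per kb (SD, n = 5), followed by C1qa at 110.9 ± 31.1, Cfp at 104 ± 5.84, C1qc at 95.2 ± 23.1 and C5ar1 at 82.1 ± 9.21. C1qb stood above the rest, and the ranges of each neighbouring pair from C1qa to C5ar1 overlapped. Lower in the WT order came C3 at 37.3 ± 7.38, Cr1l at 11.4 ± 0.499, C3ar1 at 5.71 ± 1.15 and Cfb at 0.307 ± 0.119 CPM per kb. The place of Cr1l depends on the length used: its GENCODE exons sum to 10349 bases, but its longest protein-coding transcript has 2776. With coding transcripts as lengths Cr1l stood at 42.6 ± 1.86 CPM per kb in WT, beside C3 at 37.4 ± 7.39.

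In LAIR1KO, Cfp led with 77.1 ± 13.5 CPM per kb, then C5ar1 with 74.5 ± 24.1 and C1qb with 69.0 ± 12.2 (SD, n = 5 each). These 3 overlapped each other, so their order was not resolved. C3 followed with 34.7 ± 4.48, then C1qa with 22.0 ± 3.11 and C1qc with 18.9 ± 3.93, which also overlapped. Cr1l stood at 10.6 ± 1.62 and C3ar1 at 1.34 ± 0.505 CPM per kb. With coding transcripts as lengths Cr1l stood at 39.6 ± 6.04 in LAIR1KO, beside C3 at 34.7 ± 4.49 and above C1qc at 30.4 ± 6.30. C1qb thus went from above Cfp and C5ar1 in WT to overlapping both in LAIR1KO. C1qa and C1qc, which stood among Cfp and C5ar1 in WT, were below both in LAIR1KO.

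The balance of the 3 chains was nearly the same in both genotypes. The log2 ratio of C1qb to C1qa, each per kb, was 1.60 ± 0.13 in WT and 1.64 ± 0.28 in LAIR1KO (SD, n = 5 each), with overlapping ranges. Over all 10 libraries it ran from 1.34 to 2.09, and the highest value came from LAIR1KO replicate 5. C1qb to C1qc gave 1.81 ± 0.14 in WT and 1.87 ± 0.22 in LAIR1KO, and C1qa to C1qc gave 0.21 ± 0.13 and 0.23 ± 0.19. The size of the ratios with C1qc depends on the length used for it: the GENCODE exons of C1qc sum to 1931 bases, but its longest protein-coding transcript has 1203. With coding transcripts as lengths the log2 ratio of C1qb to C1qc over all libraries was 1.16 in place of 1.84, and C1qc then ranked second in WT at 153 ± 37.1 CPM per kb. C1qb transcripts were thus the most abundant per kb of the 3 chains under either length.

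The genes around the C1q cluster gave the local context. Within 500 kb of it, a window chosen after the data were seen, 7 further genes were tested: Luzp1, Kdm1a, Ephb2, Zbtb40, Wnt4, Cdc42 and 2810405F17Rik. EdgeR called 0 of the 7 (1 was lower at an unadjusted p under 0.05), and DESeq2 and limma voom also called 0. Their log2 fold changes ran from -0.55 to 0.26. Cdc42, a small GTPase of the cytoskeleton, had the smallest adjusted p, 0.161, with 1286 CPM in WT and 1074 CPM in LAIR1KO. Without LAIR1KO replicate 3 it passed with an edgeR adjusted p of 0.0328.

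Among the receptors, C3ar1 was lower in LAIR1KO and C5ar1 overlapped between genotypes. C3ar1 (ENSMUSG00000040552, chromosome 6, 122847138 to 122856161, minus strand) encodes the receptor for C3a. It measured 27.8, 23.7, 22.7, 30.8 and 18.0 CPM in WT and 7.54, 6.73, 1.99, 6.23 and 6.38 CPM in LAIR1KO. The groups did not overlap, and LAIR1KO replicate 3 was far below its group, with 30 counts against 80 to 118 in the others. The means of C3ar1 were 24.6 ± 4.93 CPM in WT and 5.77 ± 2.18 CPM in LAIR1KO (mean ± SD, n = 5 each), a log2 fold change of -2.09 ± 0.29 and 23.5% of the WT level. Without LAIR1KO replicate 3 the log2 fold change was -1.87.

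C5ar1 (ENSMUSG00000049130, chromosome 7, 16246743 to 16259540, minus strand) encodes the receptor for C5a. It measured 212, 227, 198, 179 and 239 CPM in WT and 224, 197, 275, 124 and 138 CPM in LAIR1KO. LAIR1KO replicates 4 and 5 lay below every WT library and replicate 3 above every one, so the coefficient of variation was 32.4% in LAIR1KO and 11.2% in WT. The means were 211 ± 23.7 and 191 ± 62.0 CPM (SD, n = 5 each), with a log2 fold change of -0.14 ± 0.19, and of 0.13 without LAIR1KO replicates 4 and 5. Those 2 libraries also held the highest summed level of a myeloid progenitor list (5499 and 6872 CPM, against 3234 to 3998 CPM in the other LAIR1KO libraries), whose part in the C5ar1 values was not tested.

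C3 and Cr1l overlapped between genotypes, and Cfp did so through a single library. C3 (ENSMUSG00000024164, chromosome 17, 57203970 to 57228136, minus strand) measured 209.9, 142, 188, 176 and 244 CPM in WT and 183, 138, 190.4, 195 and 186 CPM in LAIR1KO. LAIR1KO replicate 2 was the lowest C3 library and the other 4 lay within the WT range. The means of C3 were 192 ± 38.0 and 178 ± 23.1 CPM (SD, n = 5 each), a log2 fold change of -0.11 ± 0.14, or 0.02 when libraries were scaled by their totals.

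Cfp (ENSMUSG00000001128, chromosome X, 20925454 to 20931555, minus strand) encodes properdin, which stabilises the alternative convertase. It measured 166, 194, 176, 184 and 180.2 CPM in WT and 174, 125, 122, 116 and 133 CPM in LAIR1KO. LAIR1KO replicate 1 fell inside the WT range, and the other 4 LAIR1KO libraries lay below every WT library. The means of Cfp were 180.1 ± 10.1 CPM in WT and 134 ± 23.5 CPM in LAIR1KO (mean ± SD, n = 5 each). Its log2 fold change was -0.43 ± 0.11, or 74.3% of the WT level, and -0.55 without LAIR1KO replicate 1.

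Cfb (ENSMUSG00000090231, chromosome 17, 34856374 to 34862518, minus strand), the protease subunit of that convertase, was below the minimum count for the comparison. It had 11, 9, 13, 19 and 5 counts in WT and 2, 3, 3, 4 and 4 counts in LAIR1KO, in total 57 and 16. The lowest WT library held 1 count more than the highest LAIR1KO library. In CPM these were 0.868 ± 0.336 and 0.226 ± 0.0747 (SD, n = 5 each), and a fit without the filter gave a log2 fold change of -1.91 ± 0.67. Exons of the same-strand gene model Gm20547 overlap 79.5% of the Cfb exon bases and were listed at 0 counts in all 10 libraries. How reads in shared exons were counted is not given in the sources used here, so the level of Cfb is uncertain.

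Cr1l (ENSMUSG00000016481, chromosome 1, 195097382 to 195131586, minus strand) encodes the membrane protein that limits C3 convertases on the cell's own surface. It measured 124, 111, 123, 118 and 115 CPM in WT and 114, 117, 131, 101 and 87.1 CPM in LAIR1KO. LAIR1KO replicates 4 and 5 were below every WT library and replicate 3 above every one, as for C5ar1. The means of Cr1l were 118 ± 5.16 and 109.9 ± 16.8 CPM (SD, n = 5 each). The log2 fold change was -0.10 ± 0.11, with 0.02 under scaling by library totals and 0.03 without LAIR1KO replicates 4 and 5.

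Counted together, 4 of the 8 tested members were lower in every LAIR1KO library than in any WT library: C1qa, C1qb, C1qc and C3ar1. Over all tested genes 2.06% were lower without overlap 5.61% were higher and 7.66% differed without overlap in either direction, and 0 of the 8 members were higher. Nothing is read from this count, since the genes were chosen with the contrast known. Across the 20 alternative fits the log2 fold change ran from -2.44 to -2.01 for C1qa, -2.40 to -1.97 for C1qb, -2.44 to -2.08 for C1qc and -2.22 to -1.87 for C3ar1.

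**Figure D2:**
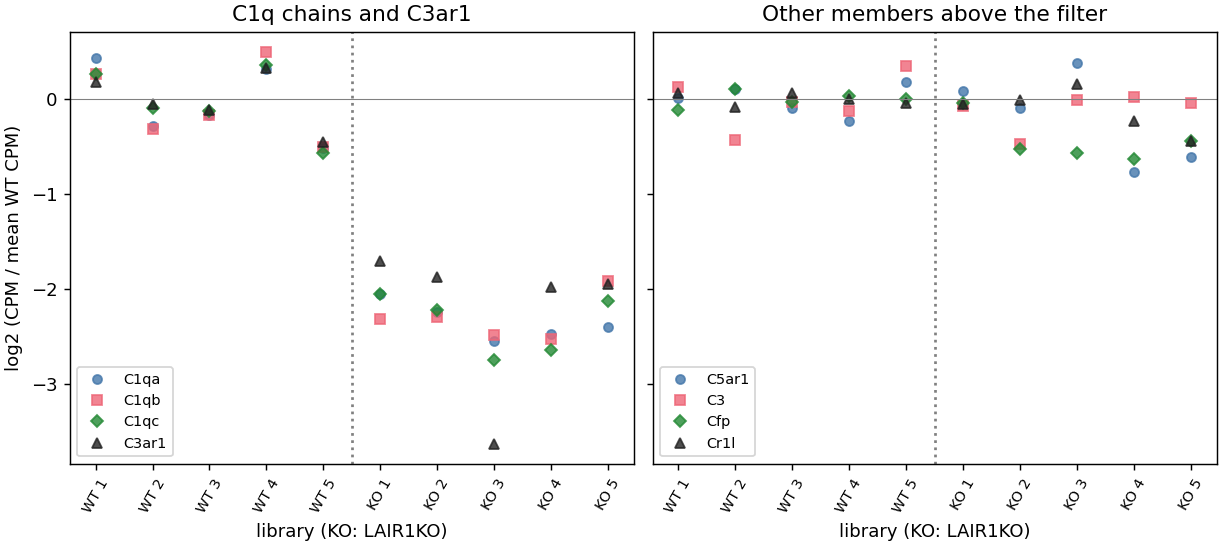
Log2 of each library's CPM over the WT mean (vertical axis) for the 10 libraries (horizontal axis), with the C1q chains and C3ar1 on the left and C5ar1, C3, Cfp and Cr1l on the right. The C1q chains move together among the WT libraries and lie below the WT libraries throughout LAIR1KO. Within LAIR1KO they differ more, with C1qa highest in replicate 1 and C1qb in replicate 5. C3ar1 departs from the chains in LAIR1KO replicate 3.

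How closely other genes followed C1q was measured as the SD, over the 10 libraries, of the log2 ratio of a gene to the mean of the 3 chains. A small SD means a close match, and a gene at the same level in every library would have 1.24. The chains themselves had SDs of 0.0859 (C1qc), 0.106 (C1qa) and 0.115 (C1qb). Each chain is part of that mean, which lowers its own SD, so these values are not comparable with those of other genes. The log2 ratios of 1 chain to another had SDs of 0.155 to 0.204 over the 10 libraries. Predicted, clone-named and unnamed genes were left out of the ranking. Of the remaining 8212 genes with a mean of at least 10 CPM, the 8 closest were Ms4a7 with 0.218, Aif1 with 0.321, Axl with 0.438, C3ar1 with 0.443, H2-Aa with 0.497, H2-Eb1 with 0.501, H2-Ab1 with 0.504 and Wfdc17 with 0.521. C3ar1 was the only other member among them. Cfp ranked 242nd with an SD of 1.02, and Cr1l, C5ar1 and C3 ranked 2656th, 3074th and 3575th. Because the genotypes differ in C1q, this measure mainly finds genes with a like fall between genotypes.

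Ms4a7, a membrane protein of the MS4A family, had 52.9 ± 19.0 CPM in WT and 11.4 ± 2.16 CPM in LAIR1KO (mean ± SD, n = 5 each). Aif1, which encodes the cytoskeletal protein IBA1 of macrophages, had 73.4 ± 28.4 and 20.4 ± 1.98 CPM. Axl, a receptor tyrosine kinase for the uptake of dying cells, had 180.3 ± 51.6 and 54.3 ± 15.2 CPM. H2-Aa, H2-Eb1 and H2-Ab1 encode chains of MHC class II, and their WT replicates 1 and 4 were the highest, as they were for C1q. H2-Aa measured 2013, 921, 1098, 2648 and 755 CPM in WT and 353 to 584 CPM in LAIR1KO. These 8 genes all stayed within the 50 closest under each of the alternatives tried. Among the first 8, 5 to 8 of them stayed, the fewest with a minimum mean of 1 CPM.

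The WT libraries alone ask which genes rise and fall with C1q without the genotype. The 5 closest genes there were Clec4b1 with an SD of 0.0675, Rnase4 with 0.0850, Tgtp2 with 0.0920, Ifi47 with 0.102 and Axl with 0.105, against 0.388 for a gene at a constant level. Tgtp2 has a near-identical neighbour, so its counts are uncertain. C3ar1 ranked 11th with 0.125, which is to say that its level followed C1q among the WT libraries. After centring each genotype, so that only differences within genotypes remained, the closest were Zfp652 with 0.156, Glrx with 0.159, Il15 with 0.159, Aif1 with 0.174 and Haus2 with 0.178. C3ar1 then had 0.466, above the 0.314 of a constant gene, with LAIR1KO replicate 3 its farthest library. C5ar1 and C3 lay above the constant gene in the WT libraries, at 0.525 and 0.530.

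The rest of the complement system was looked at through 51 further genes in 7 lists. Only 18 had enough counts to test, and the other 33 reached at most 28 counts in any library, with 8 at 0 throughout. Of the 18, 2 rose in LAIR1KO, Calr and C1qbp, and 0 fell by the edgeR quasi-likelihood test, against 6.79% of all tested genes called. At an unadjusted p under 0.05 there were 3 lower and 3 higher. DESeq2 called 1 lower (Itgax) and 3 higher, adding Cd93, and limma voom called 0 lower and 1 higher. The median log2 fold change of the 18 was -0.11, that of all tested genes 0.00, and 11 of the 18 were below 0.

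Both genes that rose came from the list of C1q binding proteins. Of its 6 genes 5 were tested, and 2 of these, Lrp1 and Scarf1, were below 0. Calr encodes calreticulin, a chaperone that also binds C1q on the surface of dying cells. It measured 482 to 577 CPM in WT and 653 to 839 CPM in LAIR1KO, with medians of 514 and 689 CPM and no overlap. The log2 fold change of Calr was 0.45 ± 0.10 (edgeR adjusted p = 0.0126), and it missed the threshold in 1 of 20 alternatives, without WT replicates 1 and 4 (adjusted p = 0.0739). C1qbp, a mainly mitochondrial protein that binds the globular heads, had 39.5 ± 8.44 CPM in WT and 67.1 ± 19.2 CPM in LAIR1KO (mean ± SD, n = 5 each). Its groups overlapped through LAIR1KO replicate 3 at 40.2 CPM, and its log2 fold change was 0.76 ± 0.20 (edgeR adjusted p = 0.0417). This call was lost in 12 of 20 alternatives, with adjusted p up to 0.211 (without LAIR1KO replicates 4 and 5). Among single libraries, it was lost on leaving out any except WT replicate 4 and LAIR1KO replicate 3, with adjusted p of 0.0736 to 0.101. Cd93, a receptor once proposed for C1q and named here after its values were seen, had a log2 fold change of 0.77 ± 0.22 and an edgeR adjusted p of 0.0559.

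Of the classical pathway 1 of 7 further genes was tested, the protease C1ra, at 0.00 ± 0.76 on the log2 scale (edgeR adjusted p = 0.999). The lectin pathway had 2 of 8 tested. The more abundant was Fcnb, a ficolin of myeloid cells, at 0.47 ± 0.36 (edgeR adjusted p = 0.491). The terminal pathway had 1 of 7, C8g, at 0.11 ± 0.22 (edgeR adjusted p = 0.833). The alternative pathway had 0 of 1, the protease Cfd, with at most 1 count in a library. C4b, a component that C1 cleaves and that has the near-identical copy C4a, was also below the minimum, with 70 counts in WT and 10 in LAIR1KO.

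Regulators had 5 of 16 genes tested and 0 called by edgeR (2 lower at an unadjusted p under 0.05, DESeq2 0, voom 0). Receptors other than C3ar1 and C5ar1 had 4 of 6 tested and 0 called by edgeR (1 lower at an unadjusted p under 0.05, DESeq2 1 lower, voom 0). Itgb2, the shared beta chain of complement receptors 3 and 4, stood at 2785 ± 217 and 2517 ± 427 CPM (log2 fold change -0.15 ± 0.12; edgeR adjusted p = 0.507). Its partners Itgam and Itgax, named after their values were seen, had log2 fold changes of -0.19 ± 0.10 and -0.40 ± 0.13 (edgeR adjusted p = 0.287 and 0.0778).

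**Figure D3:**
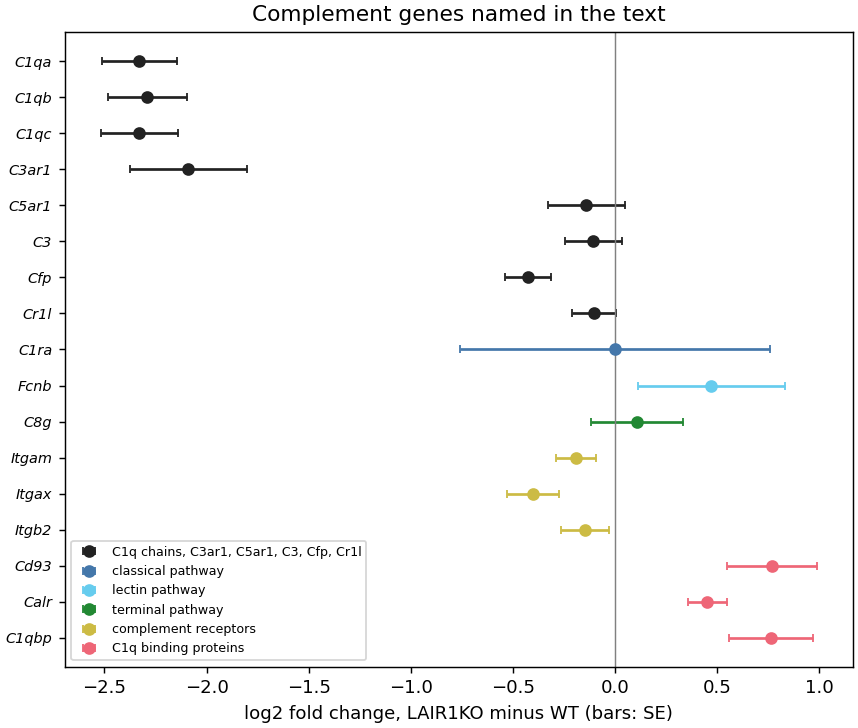
Log2 fold change, LAIR1KO minus WT, with its SE (horizontal axis) for the 8 tested members and 9 of the 18 other tested complement genes, all named in the text (vertical axis). The C1q chains and C3ar1 stand near -2, and the other genes shown lie between -0.43 and 0.77, with Calr at 0.45 and C1qbp at 0.76. Genes not shown include Clu at -1.86 ± 0.82, Serping1 at -1.48 ± 0.60 and Fcna at -0.99 ± 0.64, which edgeR did not call (adjusted p = 0.208, 0.172 and 0.408). Of all 18, 11 were below 0.

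Transcription factors known for C1q and macrophage genes included 8 tested genes, of which 4 fell in LAIR1KO by edgeR (DESeq2 5, voom 3) and 0 rose, with a median log2 fold change of -0.80. Maf, a basic leucine zipper factor of macrophages, had 12.3 ± 4.85 CPM in WT and 3.63 ± 0.269 CPM in LAIR1KO (mean ± SD, n = 5 each), without overlap (log2 fold change -1.75 ± 0.25; edgeR adjusted p = 0.00148). Spic, a factor of iron-recycling macrophages, fell by 1.09 ± 0.16 on the log2 scale (edgeR adjusted p = 0.00180), from 19.2 to 9.01 CPM. Nr1h3, the sterol receptor LXR alpha, fell by 0.77 ± 0.17 (edgeR adjusted p = 0.0163).

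Proteins with collagen-like or C1q-like domains other than C1q had 6 of 22 genes tested and 0 called by edgeR (3 lower and 1 higher at an unadjusted p under 0.05, DESeq2 0, voom 1 lower). Emilin2, the most abundant, had 824 ± 103 and 698 ± 67.8 CPM (SD, n = 5 each; log2 fold change -0.24 ± 0.10; edgeR adjusted p = 0.200). Genes of the type I interferon response, a known inducer of complement genes in myeloid cells, had 16 tested, 9 lower and 0 higher, with a median log2 fold change of -0.71. Bst2, an antiviral tether, fell by 0.61 ± 0.09 (edgeR adjusted p = 0.00201) and Ifit1, an RNA-binding antiviral protein, went from 17.9 to 30.2 CPM in WT to 9.42 to 14.1 CPM in LAIR1KO (edgeR adjusted p = 0.00491).

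Markers of resident macrophages were mostly lower in LAIR1KO, as C1q was, while those of myeloid progenitors were mostly higher. Of a list of 18 resident macrophage genes that holds none of the 9, 13 were tested, with a median log2 fold change of -0.99. By edgeR 7 fell and 0 rose (10 lower and 1 higher at an unadjusted p under 0.05, DESeq2 10 lower, voom 7 lower). Of the 13, 12 were below 0, and Cd163 went the other way with a log2 fold change of 0.77 ± 0.28 (edgeR adjusted p = 0.125). The list shares Axl with the genes closest to C1q and Spic with the transcription factors. Its sum was 13192 to 19704 CPM in WT and 8042 to 13319 CPM in LAIR1KO, mostly Apoe. Without its 2 most abundant genes, Apoe and Adgre1, the sum was 492 to 599 and 234 to 300 CPM, without overlap. Mertk, a receptor for dying cells, went from 5.32 to 0.981 CPM (edgeR adjusted p = 4.61e-04) and Fcgr1, the high-affinity IgG receptor, from 61.0 to 30.8 CPM (edgeR adjusted p = 6.61e-04). The tissue macrophage markers Cd5l, Marco, Timd4, Folr2 and Lyve1 were below the minimum count, with at most 41 counts in any library and lower ends of 2, 0, 0, 1 and 0 counts. The part of macrophage RNA in the C1q values was not tested.

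The nonclassical monocyte list, which checks the labelled cell type, was abundant in both groups, with 18357 to 22213 CPM in WT and 14377 to 20215 CPM in LAIR1KO. All 15 of its genes were tested and edgeR called 0 of them (5 lower at an unadjusted p under 0.05, DESeq2 2 lower, voom 0), with a median log2 fold change of -0.26. The log2 fold changes of all 15 were below 0. Csf1r, the receptor for the growth factor of these cells, was at -0.20 (edgeR adjusted p = 0.278, and 0.0465 without LAIR1KO replicate 3). The myeloid progenitor list rose in 9 of 10 genes, from sums of 542 to 1428 CPM to sums of 3234 to 6872 CPM, led by Mpo with 518 CPM in WT and 3401 CPM in LAIR1KO. A dendritic cell list had 6 genes tested, 2 lower and 0 higher, at 217 to 355 and 144 to 208 CPM. Its 2 lower genes were Clec9a (log2 fold change -1.46, edgeR adjusted p = 0.00494) and Siglech (-1.46, edgeR adjusted p = 0.0320), of the conventional and plasmacytoid lineages. The Siglech call was lost without WT replicate 2, 4 or 5 or LAIR1KO replicate 1, 4 or 5 (adjusted p of 0.0551 to 0.0831). The part of these lists in the C1q values was not tested.

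**Figure D4:**
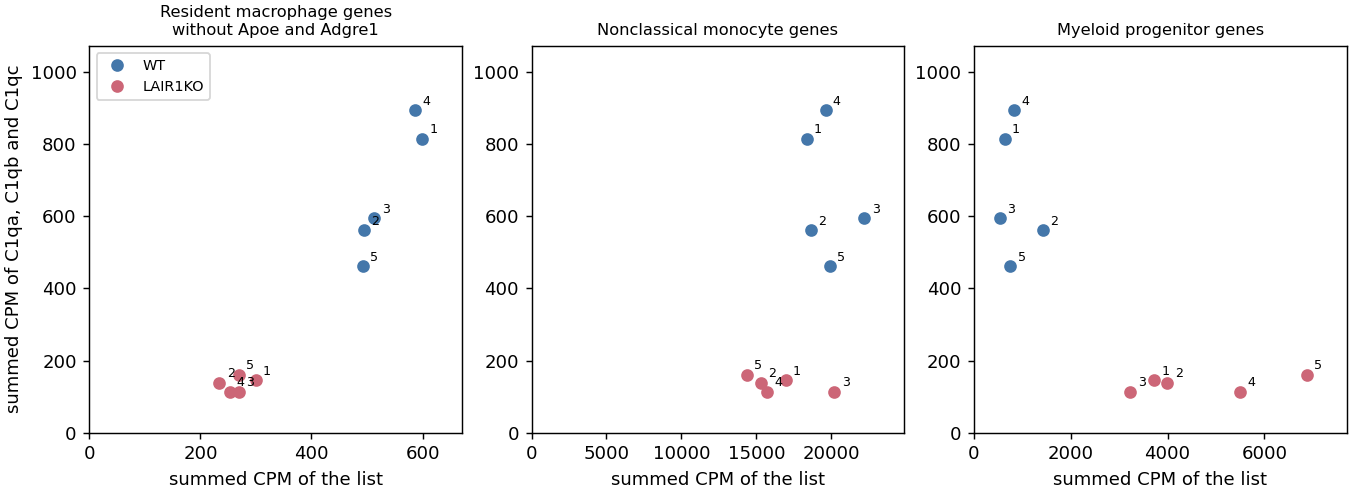
Summed CPM of the 3 C1q chains (vertical axis) against the summed CPM of a marker list (horizontal axis) in each library, in 3 panels: resident macrophage without Apoe and Adgre1, nonclassical monocyte, and myeloid progenitor. The C1q sum is 462 to 895 CPM in WT and 113 to 161 CPM in LAIR1KO; the groups also separate on the macrophage and progenitor axes and overlap on the nonclassical monocyte axis.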

How the data were processed

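RNA-seq libraries from sorted nonclassical monocytes of mouse bone marrow were analysed, 5 WT and 5 LAIR1KO, grouped by the genotype in the labels. The authors deposited 1 table of raw counts per Ensembl gene, with no normalization. GSNAP and the build GRCm38.p5 are named in the submitters' processing notes. The counting tool and strand setting are not given in those notes, so antisense overlaps cannot be told apart. Gene names, coordinates and exon lengths came from GENCODE M21 (GRCm38), which matched 52489 of 52636 identifiers, collagen-coding runs from its transcripts, and promoter windows from RefSeq (GRCm38.p6).

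The 9 genes, the other lists and the tests were chosen with earlier results of these data known. Genes passing filterByExpr (minimum count 10, minimum total 15) were scaled with TMM and compared in R 4.3.3 with edgeR 4.0.16 (glmQLFit, glmQLFTest, no covariate), with Benjamini-Hochberg adjustment over 13469 genes and a threshold of 0.05. The procedure was tested on simulated data. Log2 ratios to C1q used an edgeR prior count of 0.5, scaled to library size. Total counts of 12106209 to 15356924 per library set the counting precision, and no replicate files were identical or agreed within sampling noise. From each list the text names up to 4 called genes by smallest p in the pathway and transcription factor lists and up to 2 in the others, or the most abundant gene, and also those closest to C1q. A few genes that meet it are counted but not reported here. Alternatives were RLE, upper-quartile and library-total scaling, other filters, the replicate block, libraries left out, DESeq2 1.42.0 and limma voom 3.58.1; coding-transcript length was added after seeing the data.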

Additional observations from a re-analysis of the deposited data

Results flagged for a closer look

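Of 136 groups of 5 libraries examined, 12 had a single library far from the others of its genotype, measured as its gap to the nearest other library over the whole range of the group. Chance alone gives about 5% of groups. No explanation was weighed for any of them.

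Among the 9 complement genes, C3ar1 in LAIR1KO replicate 3 was 1.99 CPM, with the other LAIR1KO libraries at 6.23 to 7.54 CPM. C3 in LAIR1KO replicate 2 was 138 CPM, below 183 to 195 CPM in the rest of its group. Cfp in LAIR1KO replicate 1 was 174 CPM, above 116 to 133 CPM in the others. Ms4a7, the gene closest to C1q, was 7.69 CPM in LAIR1KO replicate 3 and 11.6 to 13.01 CPM in the other LAIR1KO libraries.

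WT replicate 2 stood apart for a progenitor gene and 3 globin genes. Mpo was 915 CPM there against 336 to 502 CPM in the other WT libraries, Hba-a2 was 174 against 10.6 to 51.0 CPM, Hba-a1 was 165 against 12.4 to 45.6 CPM, and Hbb-bs was 711 against 36.6 to 170.4 CPM. Hba-a1 and Hba-a2 are near-identical copies, so the split of reads between them is uncertain. Ppbp, a platelet chemokine, was 71.3 CPM in WT replicate 5 against 0.892 to 4.01 CPM, and 4.64 CPM in LAIR1KO replicate 2 against 0.398 to 1.17 CPM. Ifit1 was 30.2 CPM in WT replicate 1 against 17.9 to 20.9 CPM, and Nkg7, a granule protein of killer cells, was 46.9 CPM in LAIR1KO replicate 5 against 20.0 to 26.9 CPM.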

How the results depend on the processing

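The log2 fold changes of the 8 tested complement genes moved by less than the spread between replicates in all 20 alternatives. The count of tested members lower without overlap was 4 to 5. Over all genes, 688 were higher and 226 lower. Library totals gave 1243 and 136 and moved the median log2 fold change of all genes to 0.13, so 90.1% of calls were higher in place of 75.3%. DESeq2 called 510 lower. Without LAIR1KO replicates 4 and 5 there were 236 higher and 140 lower, and without WT replicates 1 and 4 266 and 72. Leaving out 1 library gave 422 to 789 higher and 113 to 381 lower. The higher count fell by over 1.5 times without WT replicate 3 (455) or LAIR1KO replicates 4 (422) or 5 (446). The lower count did so without WT replicates 2 (126), 3 (130) or 4 (146) or LAIR1KO replicates 2 (135), 4 (113) or 5 (148), and rose to 381 without LAIR1KO replicate 3.

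Same-numbered libraries did not deviate together (r from -0.06 to 0.04 over 5 pairs, 0 of 5 closest to their own number), so the main fit did not pair them. These 5 pairs cannot exclude a pairing with small effects. A fit with the replicate block called 122 genes lower and 478 higher, and 1 other complement gene higher.

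Of the other complement genes, 2 were higher and 0 lower. The higher count was 1 with voom and without LAIR1KO replicates 4 and 5, 0 without WT replicates 1 and 4, and 1 to 3 with a library left out. The lower count was 1 with no filter (C4b), with DESeq2 (Itgax) and without LAIR1KO replicates 4 and 5 (Lrp1), and 0 to 1 with a library left out. The log2 ratio of C1qb to C1qc, 1.84 per kb, was 1.02 from counts without length and 1.16 with coding transcripts.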

Other observations

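The remaining marker lists were measured beside the complement genes as a record of what else the sorted cells held. The classical monocyte list had 6 of 7 genes tested, 0 lower and 2 higher by edgeR (1 lower and 3 higher at an unadjusted p under 0.05, DESeq2 1 lower and 2 higher, voom 0 lower and 2 higher), with sums of 679 to 1213 CPM in WT and 938 to 1353 CPM in LAIR1KO. The higher genes included F13a1, a coagulation factor subunit (log2 fold change 2.10, edgeR adjusted p = 3.48e-04). Ccr2, the chemokine receptor that defines classical monocytes and the most abundant gene of the list, went the other way, with 648 ± 187 CPM in WT and 423 ± 59.4 CPM in LAIR1KO (mean ± SD, n = 5 each; log2 fold change -0.62 ± 0.18; edgeR adjusted p = 0.0588). It was the gene DESeq2 called lower, and edgeR called it without WT replicate 5 (adjusted p = 0.0185). The neutrophil list had 11 genes tested and edgeR called 0 (1 higher at an unadjusted p under 0.05, DESeq2 0, voom 0), with sums of 894 to 2385 and 1397 to 1973 CPM. The B cell list had 7 tested and edgeR called 0 (1 lower at an unadjusted p under 0.05, DESeq2 0, voom 0), with sums of 959 to 1401 and 914 to 1391 CPM.

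Erythroid genes fell in 4 of 7 and rose in 0 of 7 by edgeR (5 lower with DESeq2, 0 with voom), with sums of 88.0 to 1297 CPM in WT and 40.1 to 134 CPM in LAIR1KO. WT replicate 2 held the highest erythroid sum, and the groups overlapped. Without it the globin genes Hba-a1, Hba-a2 and Hbb-bs lost their calls (adjusted p = 0.0821, 0.0567 and 0.0937). All 3 calls were also lost without WT replicate 3 or LAIR1KO replicate 1, 4 or 5 (adjusted p of 0.0525 to 0.0960), and those of Hba-a1 and Hbb-bs without LAIR1KO replicate 2 or 3 (adjusted p of 0.0558 to 0.0714). Platelet genes had 3 of 6 tested, of which 1 fell, Pf4 (log2 fold change -2.22, edgeR adjusted p = 0.0167), with sums of 7.07 to 157 and 3.25 to 11.7 CPM. Of the T and NK cell list 1 of 7 was tested and rose, Nkg7 (log2 fold change 1.35, edgeR adjusted p = 0.0206), a call lost without WT replicate 1 (adjusted p = 0.0533) or 3 (0.0573) or LAIR1KO replicate 5 (0.0510). The stroma and endothelium list had 2 of 7 tested and edgeR called 0 (1 lower at an unadjusted p under 0.05, DESeq2 1 lower, voom 0), with sums of 179 to 435 and 239 to 358 CPM.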
